A study of Mus musculus with 6 samples.

Results

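Krtdap, Sbsn, Dmkn and Cdsn encode secreted proteins that keratinocytes make in the upper layers of the epidermis. The members are the 4 rows of the deposited gene table with these symbols, of 17866 genes in all. They were chosen with measured values in view: Krtdap was among the largest rises in knockout over wild type, and the other members were added as secreted proteins of the same layers. Their values are therefore given as a description, without a test of the genotype difference. All 4 of 4 passed the filter on low counts that left 13305 genes to test, and Krtdap and Dmkn passed it only through the knockout libraries.

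Keratinocytes of the epidermis stop dividing, move up and build a cornified layer that seals the skin, whereas the corneal epithelium is stratified but normally stays non-cornified and transparent. Suprabasin (Sbsn), dermokine (Dmkn) and keratinocyte differentiation-associated protein (Krtdap) are known as secreted products of stratified epithelia whose genes stand together in a cluster. Corneodesmosin (Cdsn) is an adhesive glycoprotein of corneodesmosomes, the junctions that hold cornified cells together, and kallikrein peptidases cut it before the cells are shed.

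Corneal epithelium of C57BL/6 mice aged 6 months was profiled by bulk RNA-seq in 6 libraries, 3 labelled WT and 3 labelled Rela-/- (here KO). The gene for the NF-κB subunit p65, Rela, was deleted by crossing floxed Rela to Krt14-Cre, a driver that is active in all K14-expressing epithelia and not in the cornea alone. Each library came from a separate biological sample, and whether the WT animals carried a floxed allele or the Cre is not given in the sources used here. Library totals lay between 20158404 and 20880347 estimated counts, and 3 counts, taken as the detection floor, stood for 0.137 to 0.152 CPM (the count scaled to a common library size with TMM factors). Counts of Rela were 1871, 1844 and 1855 for WT against 318, 223 and 313 for KO (log2 fold change -2.60, SE 0.141, edgeR adjusted p = 2.74e-06). In these bulk samples, a change in the number of cells of a type and a change in RNA per cell cannot be told apart.

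The genes lie at 2 loci of the GRCm38 genome, all on the plus strand. Sbsn (gene 282619, chr7:30748971-30756134), Dmkn (gene 73712, chr7:30763724-30781066) and Krtdap (gene 64661, chr7:30787905-30791083) follow each other on chromosome 7 within 42112 bases. The gap from the end of Sbsn to the start of Dmkn is 7590 bases, and that from the end of Dmkn to the start of Krtdap is 6839 bases. Cdsn (gene 386463, chr17:35543082-35557180) lies on chromosome 17, beside the MHC class I genes.

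Since these genes were high in the same libraries, the bases around their starts are shown. Each run holds the 250 bases before an annotated start and the first 10 bases of the transcript, 5′ to 3′ on the plus strand, from RefSeq on GRCm38.p6. Capitals mark TGANTCA, the letters of the AP-1 motif, and TATAAA, the TATA box.
Krtdap, chr7:30787655-30787914: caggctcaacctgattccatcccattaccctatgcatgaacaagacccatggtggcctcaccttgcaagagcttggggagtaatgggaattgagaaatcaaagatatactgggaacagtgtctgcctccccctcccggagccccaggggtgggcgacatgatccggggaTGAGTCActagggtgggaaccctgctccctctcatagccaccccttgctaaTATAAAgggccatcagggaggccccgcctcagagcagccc
Sbsn, chr7:30751221-30751480: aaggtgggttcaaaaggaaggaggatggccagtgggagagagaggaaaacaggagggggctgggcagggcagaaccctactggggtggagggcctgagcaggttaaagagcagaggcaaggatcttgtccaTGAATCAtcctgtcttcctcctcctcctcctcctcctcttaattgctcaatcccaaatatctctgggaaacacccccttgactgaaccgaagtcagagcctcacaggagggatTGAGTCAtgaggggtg
Dmkn upstream start, chr7:30763506-30763765: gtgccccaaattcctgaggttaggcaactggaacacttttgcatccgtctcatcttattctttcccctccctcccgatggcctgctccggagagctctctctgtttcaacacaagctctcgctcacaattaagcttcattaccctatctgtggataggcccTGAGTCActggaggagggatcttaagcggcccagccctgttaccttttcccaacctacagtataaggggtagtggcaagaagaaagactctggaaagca
Dmkn internal start, chr7:30776155-30776414: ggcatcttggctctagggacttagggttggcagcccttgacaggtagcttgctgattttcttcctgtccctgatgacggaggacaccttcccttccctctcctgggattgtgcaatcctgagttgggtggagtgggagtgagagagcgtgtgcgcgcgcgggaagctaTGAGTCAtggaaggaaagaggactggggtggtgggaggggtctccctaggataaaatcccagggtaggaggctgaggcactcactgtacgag
Cdsn downstream start, chr17:35551878-35552137: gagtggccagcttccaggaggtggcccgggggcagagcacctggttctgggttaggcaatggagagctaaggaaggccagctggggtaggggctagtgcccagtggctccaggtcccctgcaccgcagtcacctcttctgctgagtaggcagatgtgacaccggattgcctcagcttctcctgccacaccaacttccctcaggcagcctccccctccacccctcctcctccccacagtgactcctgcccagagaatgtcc

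All 4 genes matched the table of starts, and it gives 1 start for Krtdap and Sbsn, 3 for Dmkn and 2 for Cdsn. The letters TGAGTCA stood 81 bases before the start of Krtdap, 89 bases before the upstream start of Dmkn and 82 bases before its internal start. Sbsn had TGAATCA 119 bases before its start and TGAGTCA from 6 bases before it, across the first base of the transcript. No window of Cdsn held TGANTCA. Of 32851 windows of 300 bases, from 250 bases before to 50 bases after a start, 7.81% held TGANTCA on either strand. TATAAA stood 30 bases before the start of Krtdap alone among the members, and 13.6% of all windows held it. The C/EBP letters TTGCNNAA occurred once in a window of Sbsn, at each start of Dmkn and at the downstream start of Cdsn, against 10.8% of all windows. A match to the NF-kB consensus lay 15 bases before the start of Krtdap and 46 bases before the internal start of Dmkn, against 8.46% of all windows. The GRHL letters AACCNGTT occurred in no window of a member and in 2.09% of all windows. These motifs were picked after the sequences had been seen, they overlapped none of each other in these windows, and a match is a string of letters and not a measured binding site.

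Krtdap, the smallest of the transcripts, was all but undetected in WT. Its counts were 0, 4 and 1 in WT replicates 1, 2 and 3 and 24696, 28257 and 23227 in the KO replicates. Only WT replicate 2 lay above the floor of 3 counts, and every KO library lay far above it. The means were 0.0778 ± 0.0967 CPM in WT and 1275.1 ± 131.7 CPM in KO (SD, n = 3 each). Summed over libraries, 5 WT counts stood against 76180 KO counts, a ratio per effective library size of 16433.4 with an exact Clopper-Pearson 95% interval of 7041.6 to 50613, which covers counting error only. The fitted log2 fold change was 13.90 (SE 0.369), the fifth-highest of all genes tested, and its size depends on how counts near 0 are treated. Without WT replicate 2, which held 4 of the 5 WT counts, it was 15.41.

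Dmkn encodes dermokine, which keratinocytes make in several isoforms from more than 1 start. Its counts in WT replicates 1, 2 and 3 were 6, 51 and 31, against 39996, 32355 and 35566 in the KO replicates. WT replicate 1 was the lowest and lay 8.63 times below WT replicate 2 in CPM, whereas the KO libraries stood within 1.25 times of each other. The mean was 1.37 ± 1.05 CPM for WT and 1806.9 ± 203.6 CPM in KO (SD, n = 3 each), 1317.2 times higher. The fitted log2 fold change was 10.36 (SE 0.547), rank 48 among the rises. Without WT replicate 2 the ratio of means was 2073.8.

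Sbsn, suprabasin, was the member with the steadiest WT level. Its counts were 102, 128 and 114 in WT, all far above the floor, and 25380, 14631 and 18692 in KO. KO replicate 1 was the highest and KO replicate 2 the lowest, and no WT library came near either. The mean was 5.34 ± 0.643 CPM for WT and 983.5 ± 279.4 CPM in KO (SD, n = 3 each), a ratio of 184.1 and a fitted log2 fold change of 7.52 (SE 0.264), rank 160 among the rises.

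Cdsn, corneodesmosin, had the widest relative spread of the members in KO. The WT counts were 149, 583 and 138, and the KO counts 36054, 12359 and 22012. WT replicate 2 stood 4.15 times above WT replicate 3, and KO replicate 1 stood 2.95 times above KO replicate 2, yet the groups did not overlap. The mean was 13.5 ± 11.8 CPM for WT and 1180.9 ± 607.4 CPM in KO (SD, n = 3 each), 87.5 times higher. Without WT replicate 2 the ratio was 176.8. The fitted log2 fold change was 6.45 (SE 0.709), rank 244 among the rises.

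For every member the lowest KO library lay above the highest WT library. That was true of 34.7% of all genes tested, and 31.8% were called higher in KO and 30.2% lower at an edgeR adjusted p of 0.05. The members were chosen on this contrast, so nothing is read from their share.

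**Figure D1:**
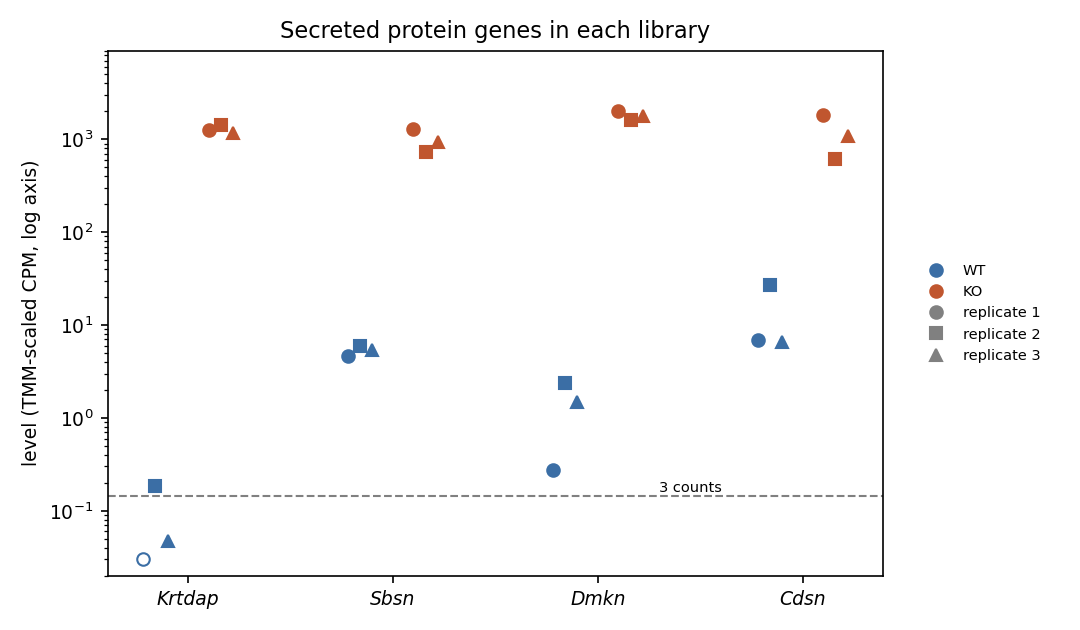
Level of each gene in each library (TMM-scaled CPM on a log axis), with WT in blue, KO in red and the symbol giving the replicate. The open circle marks a count of 0, drawn at the foot of the axis, and the dashed line marks 3 counts. All 12 KO points lie between 619.9 and 2025.6 CPM, and all 12 WT points lie at 27.1 CPM or less.

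Levels can be set against each other only per length, for which the deposited TPM was used. In KO, Krtdap had the highest TPM at 5131.3, 5862.1 and 4668.8 in replicates 1, 2 and 3. Dmkn came next at 3525.6, 3322.5 and 3313.9 TPM, so that every Krtdap value lay above every Dmkn value. Sbsn followed at 1750.4, 1211.0 and 1374.1 TPM, below every Dmkn value. Cdsn stood at 1301.2, 446.0 and 768.9 TPM. In each KO library the order was Krtdap, Dmkn, Sbsn, Cdsn, but the ranges of Sbsn and Cdsn overlapped, with Cdsn in replicate 1 above Sbsn in replicate 2. The ratio of Sbsn to Cdsn in TPM was 1.35, 2.72 and 1.79, against 1.46, 1.76 and 1.41 for Krtdap to Dmkn and 2.01, 2.74 and 2.41 for Dmkn to Sbsn.

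In WT the order of TPM was another. Cdsn had 6.12, 24.6 and 5.66 TPM and Sbsn 6.15, 7.16 and 6.52 TPM, overlapping each other. Dmkn had 0.33, 6.48 and 2.12 TPM, so that only its replicate 2 reached the range of Sbsn and Cdsn. Krtdap was the lowest in every WT library at 0.0, 0.97 and 0.24 TPM. Krtdap thus went from the last place of the 4 in WT to the first in KO, and Cdsn was last in every KO library.

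Among all 17866 genes ranked by TPM within a library, Krtdap stood at rank 17, 15 and 22 in KO, and Dmkn at 33, 34 and 40. Sbsn held ranks 90, 131 and 113, and Cdsn ranks 125, 287 and 203. In WT the highest rank of any member was 5352, for Cdsn in replicate 2. The 4 genes together made up 1.17%, 1.08% and 1.01% of all TPM in the KO replicates and 0.00126%, 0.00392% and 0.00145% in the WT replicates.

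**Figure D2:**
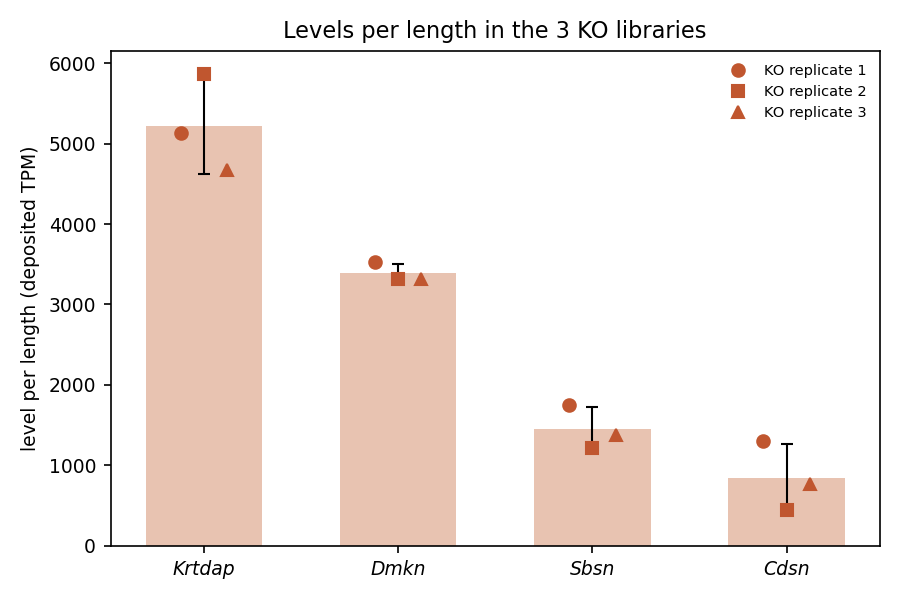
Level per length (deposited TPM) of the 4 genes in the KO libraries. Bars give the mean, error bars the SD of 3 libraries and symbols the replicates. Krtdap and Dmkn stand apart from the rest, and the points of Sbsn and Cdsn overlap.

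The members did not vary alike among the KO libraries. The coefficient of variation of CPM over the 3 KO libraries was 10.3% for Krtdap and 11.3% for Dmkn, against 28.4% for Sbsn and 51.4% for Cdsn. Over the 241 tested genes with a mean of at least 500 CPM in KO, the median coefficient was 9.22% and the 90th percentile 28.7%. KO replicate 2 had the lowest CPM of Sbsn, Dmkn and Cdsn but the highest of Krtdap. Across a list of 38 other upper epidermis genes, which holds none of the members, KO replicate 2 was the lowest KO library for 22 of the 28 called higher (79%), against 34.5% of all genes tested. In the lists described below, it was also lowest for 23 of 33 tested regulators of epithelial differentiation. The same held for 17 of 28 tested corneodesmosome and peptidase genes. A low KO replicate 2 was thus not particular to upper epidermis genes. WT replicate 2 was the highest WT library for 16 of the 28 upper epidermis genes called higher (57.1%), against 33.1% of all genes tested. It was also the highest WT library for each of the 4 members.

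The counts and FPKM of a gene together give the effective length that RSEM assigned to it, the mean length of its transcripts weighted by their estimated share. For Sbsn this implied length was 1745, 1849 and 1756 bases in WT and 1289, 1073 and 1171 bases in KO, with no overlap between the groups, although the WT values rest on 102 to 128 counts. The annotated coding transcripts of Sbsn are 432 to 2221 bases long (4 in GENCODE M21), so shorter transcripts had a larger estimated share of Sbsn in KO. In TPM, which takes length into account and also scales libraries differently, the ratio of the Sbsn means was 218.6, against 184.1 in CPM. For Cdsn, whose implied length hardly changed, the ratio was 69.1 in TPM against 87.5 in CPM. The gap for Sbsn is therefore not a measure of length alone. Dmkn has 6 coding transcripts of 662 to 2063 bases in GENCODE M21 and 5 transcripts in the deposited data. Its implied length was 1009, 865 and 924 bases in KO and 815 bases in WT replicate 2, the only WT library with at least 50 counts. The 662-base transcript begins at position 30776401, close to the internal start shown above, whereas transcripts of 1926 bases or more begin between 30763756 and 30763799. Krtdap had 428 bases in each KO library, and its coding transcripts in GENCODE M21 span 323 to 470 bases. The deposited data list 1 transcript for Krtdap, so its implied length could not vary with an isoform mix. Cdsn has 1 coding transcript of 2678 bases in GENCODE M21 and 2 transcripts in the deposited data. Its implied length was 2567, 2449 and 2448 bases in WT and 2464, 2462 and 2464 bases in KO. All counts of the 4 genes were whole numbers to within 1e-06, whereas 30.4% to 32.3% of all counts of a library were not, so no fractions of reads were assigned to the 4 genes.

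**Figure D3:**
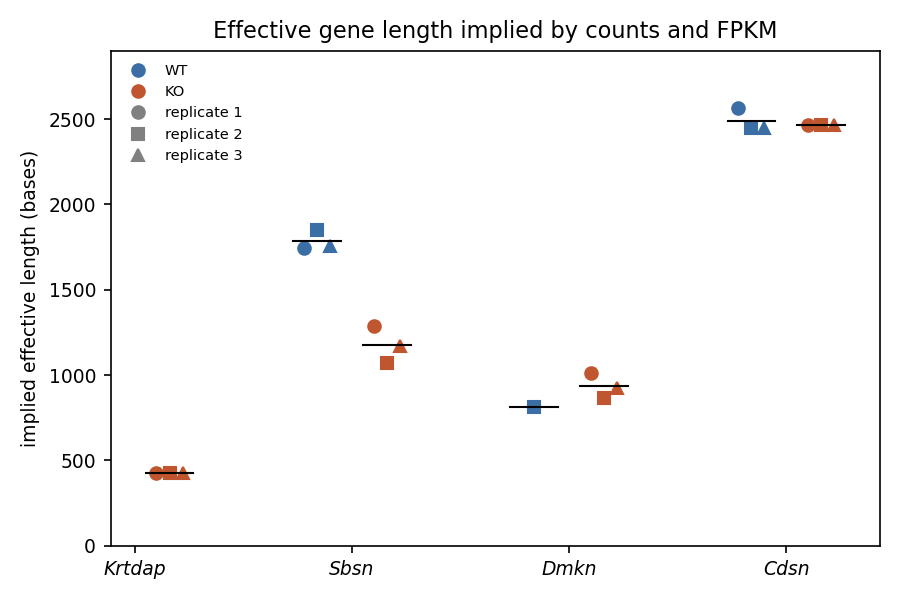
Effective length in bases implied by counts and FPKM, for libraries with at least 50 counts of the gene. Points are libraries and black lines group means. Sbsn lies at 1745 to 1849 bases in WT and 1073 to 1289 bases in KO. Cdsn holds nearly the same length in every library shown. Krtdap, with 1 transcript in the deposited data, could not vary with an isoform mix.

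The other genes near the members were compared with the tests that the design allows. Within 250 kb of the chromosome 7 members, 26 other genes were measured and 19 were tested. Of these, 5 were called higher, 3 lower and 11 were not called, and the median log2 fold change was -0.02, beside 0.0063 over all genes tested. The shares over all genes tested were the 31.8% called higher and 30.2% called lower given above. By start position, the nearest genes before Sbsn were Gapdhs, a glycolytic enzyme of sperm, and Tmem147, an endoplasmic reticulum membrane protein. Gapdhs showed WT counts of 25, 36 and 26 beside KO counts of 32, 28 and 17 (log2 fold change -0.07, SE 0.321, edgeR adjusted p = 0.872). Its deposited interval runs from 30729033 to 30809726 and spans all 3 members. Tmem147, with WT counts of 428, 459 and 441 and KO counts of 743, 884 and 830, rose by 1.0 on the log2 scale (SE 0.10, edgeR adjusted p = 6.47e-05). Beyond Krtdap, the fatty acid receptor gene Ffar2 had at most 13 counts in any library and was not tested. The B cell receptor gene Cd22 followed, with a log2 fold change of -0.29 (SE 0.420, edgeR adjusted p = 0.575).

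Around Cdsn, 17 other genes were measured and 13 were tested. Of these, 3 were called higher, 6 lower and 4 not called, with a median log2 fold change of -0.24. Beside them stand 31.8% called higher and 30.2% lower over all genes tested. The nearest measured gene on each side of Cdsn was called higher. Psors1c2, which encodes a proline-rich protein of the upper epidermis, stood at 10, 18 and 8 counts among WT libraries against 1994, 512 and 1812 among KO libraries (log2 fold change 7.0, SE 0.639, edgeR adjusted p = 3.9e-05). For the gene 2300002M23Rik, the WT counts of 19, 20 and 24 compared with KO counts of 11771, 4280 and 7358 (log2 fold change 8.64, SE 0.462, edgeR adjusted p = 2.53e-06). As for Cdsn, KO replicate 2 was the lowest KO library of both. The third gene called higher was H2-Q7, an MHC class I gene, at 4.25 (SE 0.649, edgeR adjusted p = 0.00061). Its counts were shared with near-identical paralogs by RSEM and are uncertain. One gene further out on each side, Cchcr1, a coiled-coil protein, and Gm9573, a mucin-like gene, fell by 0.62 and 1.52 on the log2 scale (SE 0.119 and 0.156, edgeR adjusted p = 0.00217 and 7.07e-05).

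**Figure D4:**
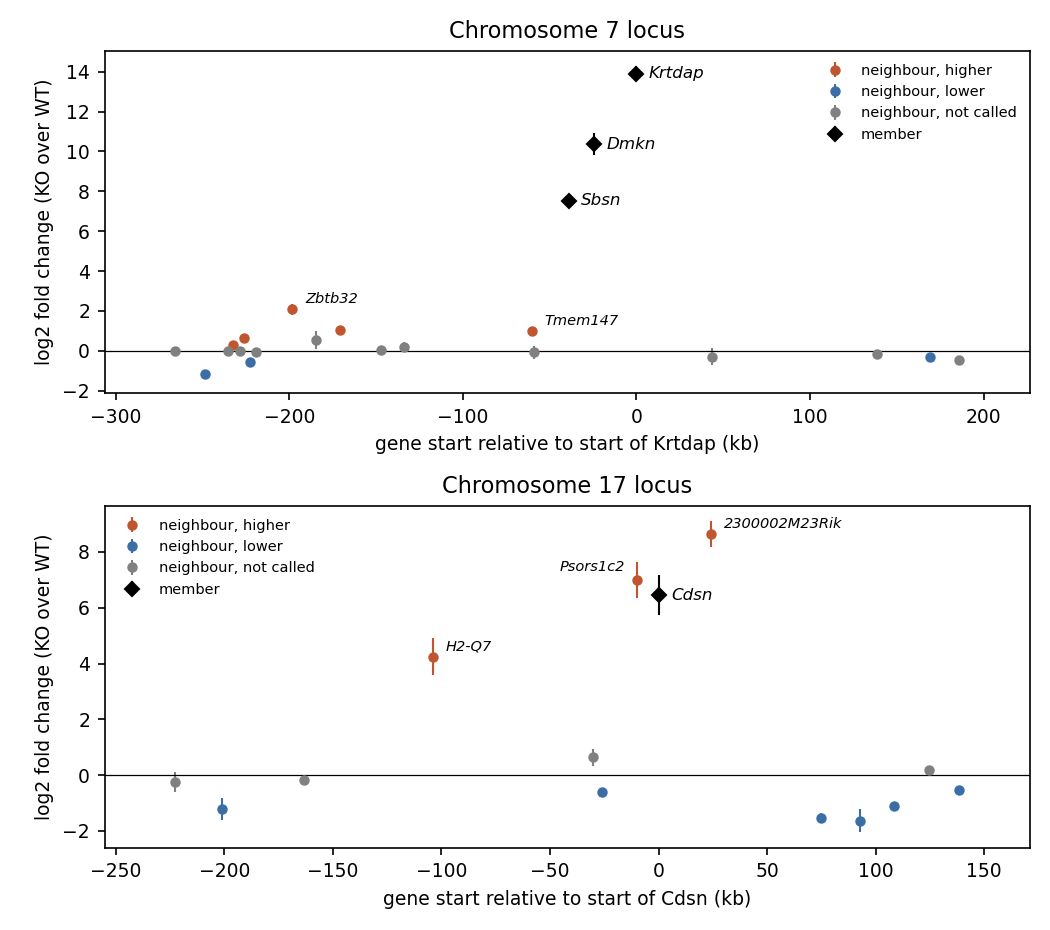
Fitted log2 fold change (KO over WT, bars give the SE) of each tested gene within 250 kb, by the distance in kb of its start from the start of Krtdap (top) or Cdsn (bottom). Diamonds are the 4 described genes, and red, blue and grey dots are neighbours called higher, lower and not called. Near Krtdap no tested neighbour lies above 2.08, whereas near Cdsn Psors1c2 and 2300002M23Rik lie at 7.0 and 8.64.

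Corneodesmosin is built into desmosomes and cut by peptidases, so the genes of that pathway were counted from a list of 30. Of these, 28 were tested, 18 were called higher, 1 lower and 9 not called, and the median log2 fold change was 1.04, beside 31.8% called higher and a median of 0.0063 over all genes tested. Among desmosomal cadherins, Dsc1 gave 56, 50 and 40 WT counts against 16570, 13349 and 7229 KO counts (log2 fold change 8.10, SE 0.377, edgeR adjusted p = 1.48e-06). Dsg1b rose by 2.42, Dsg3 by 1.1 and Dsc2 by 0.68, whereas Dsg1a had a value of -0.38 (SE 0.221, edgeR adjusted p = 0.169). Dsc3 and Dsg1c were not called either, at -0.17 and 0.23 (edgeR adjusted p = 0.304 and 0.636). Dsg1a and Dsg1b are close paralogs, and RSEM divided reads between them. Of the plaque proteins, only Pkp1 was called, rising by 0.77, and desmoplakin (Dsp) had a value of 0.24 (SE 0.171, edgeR adjusted p = 0.249). Pkp3 and Jup stood at 0.02 and 0.01 (edgeR adjusted p = 0.902 and 0.973).

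Every kallikrein of the list was called higher. Klk7, the enzyme best known for cutting corneodesmosin, gave 1, 1 and 2 WT counts against 1605, 804 and 1688 KO counts, at least 491.0-fold higher when the mean KO level is set against 3 counts per library. Klk5, which activates other kallikreins, was undetected in WT and had 60, 23 and 70 counts in KO, at least 18.3-fold higher. Klk10, Klk13 and Klk14 reached mean CPM of 2430.1 ± 711.0, 1051.8 ± 256.8 and 1009.2 ± 442.0 in KO (SD, n = 3 each). Klk13 gave 2, 8 and 4 WT counts against 22212, 15279 and 25369 KO counts, with a fitted log2 value of 12.20 (SE 0.376, edgeR adjusted p = 2.64e-07). Klk14 stood at 10.20, Klk6 at 7.32, Klk8 at 7.14 and Klk10 at 6.2 on the same scale. St14, which encodes the membrane peptidase matriptase, was the only listed gene called lower, at -0.54 (SE 0.132, edgeR adjusted p = 0.00722).

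Most peptidase inhibitors of the list were called higher, whereas Spint1 had a value of -0.18 (SE 0.128, edgeR adjusted p = 0.243) and A2ml1 was not tested. Spink5, which encodes the kallikrein inhibitor LEKTI, went from 172.6 ± 85.1 CPM (WT) to 1129.5 ± 90.3 CPM (KO, SD, n = 3 each), a log2 fold change of 2.71 (SE 0.360, edgeR adjusted p = 0.000287). Wfdc5 rose by 5.0 and Cst6, cystatin M/E, by 1.91 on the log2 scale. Wfdc12 was at least 291.1-fold higher, its WT counts lying at or under the floor. Among the rest, the lysosomal peptidase gene Ctsd rose by 0.98 and Serpinb5 by 0.69. The peptidase genes Ctsl and Prss8 were not called, at -0.25 and -0.06 (edgeR adjusted p = 0.171 and 0.739).

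**Figure D5:**
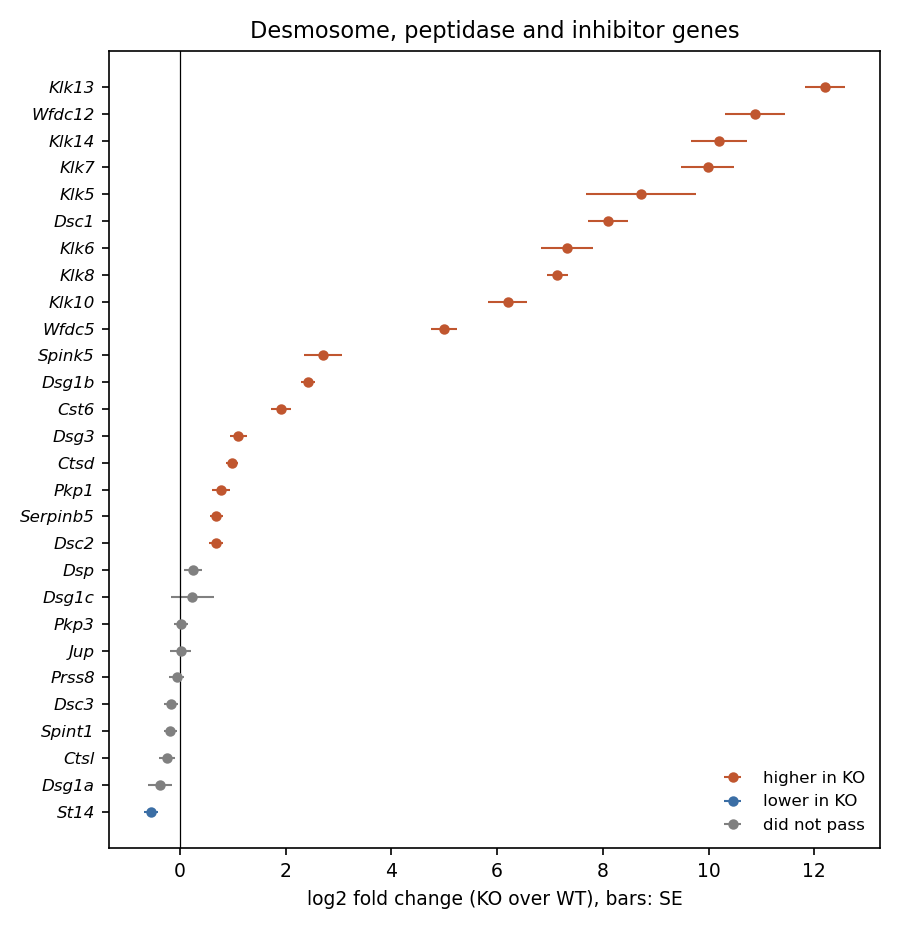
Fitted log2 fold change (KO over WT) of the 28 tested desmosome, peptidase and inhibitor genes, with bars giving the SE. Red points were called higher, the blue point lower and grey points did not pass the edgeR test at an adjusted p of 0.05. Klk5, Klk7 and Wfdc12 had at most 3 counts in every WT library, so their places depend on the prior count.

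Of the 38 other upper epidermis genes listed, 32 were tested, with 28 called higher, 2 lower and 2 not called, against 31.8% higher and 30.2% lower over all genes tested. The list holds none of the members, and it was written with results of these data known. The median log2 fold change was 8.06, or 7.55 with undetected genes set at their lower bounds. The highest values were those of Hrnr, the fused S100 protein hornerin, which was at least 3299.4-fold higher, and of Rptn and Sprr3, cornified envelope proteins, at 13.19 and 13.10. The fitted values of these 3 rest on WT counts near 0. The lowest were Ivl, involucrin, and Calml3, a calmodulin-like protein, which fell by 0.60 and 0.43 (SE 0.206 and 0.140, edgeR adjusted p = 0.0333 and 0.0254), and Dsg1a. Without WT replicate 3 or KO replicate 2 neither call held, with adjusted p between 0.0758 and 0.0964 (Calml3 and Ivl).

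Of 34 listed transcription factors and other regulators of epithelial differentiation, 33 were tested. Of these, 10 were called higher, 8 lower and 15 not called, with a median of 0.08. Over all genes tested, 31.8% were called higher and 30.2% lower, with a median of 0.0063, so the list did not stand out by its counts. The list holds 4 AP-1 genes, of which 1 was called higher, 1 lower and 2 were not called. Fosl1 was at the floor in WT and at least 48.3-fold higher in KO, where it reached 6.75 ± 5.06 CPM (SD, n = 3). Fosl2 fell by 1.04 (SE 0.11, edgeR adjusted p = 8.24e-05), from a mean of 482.5 ± 36.7 CPM for WT to 233.9 ± 21.1 CPM for KO (SD, n = 3 each). Junb and Jund did not pass, with values of -0.18 and 0.26 (SE 0.169 and 0.226, edgeR adjusted p = 0.379 and 0.352). Without KO replicate 2, Jund was called higher at 0.49 (edgeR adjusted p = 0.0232). Maf, a bZIP factor of late keratinocyte differentiation, rose by 6.54 (SE 0.254, edgeR adjusted p = 6.05e-07) and Nfe2l2, the factor NRF2, by 2.37 (SE 0.106, edgeR adjusted p = 1.28e-06). Besides Rela itself, Satb1, a chromatin organiser, and Ovol2, a zinc finger repressor, fell the most, by 3.53 and 1.24 (SE 0.165 and 0.178, edgeR adjusted p = 1.48e-06 and 0.000437).

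The 3 genes most like each member were named by the root mean square difference of centred log2(CPM + 1) over the 6 libraries, among 10900 genes. For Krtdap they were Serpinb12, Sprr1b and Klk13, with differences of 0.277, 0.299 and 0.386 log2 units. Sbsn was nearest to the cornified envelope genes Lce3e and Lce3f, at 0.198 and 0.214, and to Abca12, the lipid transporter of lamellar granules, at 0.215. For Dmkn they were Serpinb3a at 0.246, Klk13 at 0.369 and the suprabasal keratin gene Krt10 at 0.372. Cdsn had no gene as close, its nearest being Ndufa4l2 at 0.446, Pitx1 at 0.534 and Krt17 at 0.565. The names depended on the measure: with a pseudocount of 0.1, 0 of the 3 recurred for Sbsn, Dmkn or Cdsn.

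Markers of other cells moved in the same libraries. The tissue label was checked against the corneal epithelial keratin gene Krt12, which had 36538.0 ± 1060.0 CPM in WT and 7121.2 ± 1362.7 CPM in KO (SD, n = 3 each) and a fitted log2 value of -2.36 (SE 0.174, edgeR adjusted p = 1.29e-05). All 6 listed corneal markers were called lower, and their summed CPM lay at 68054.5 to 68879.7 in WT and 11587.3 to 14326.8 in KO. Of 10 sebaceous and meibomian gland markers, 3 of 4 tested were called higher, with a sum of 1.33 to 3.17 CPM in WT and 15.6 to 19.2 CPM in KO, led by Cidea, and 4 of the 8 in the table had at most 3 counts in every library. Hair follicle and hair shaft markers summed to 11.6 to 18.8 CPM in WT and 23 to 31.8 CPM in KO, and 1 of 3 tested was called higher. Goblet cell markers summed to 155.5 to 175.8 CPM in WT and 59.7 to 104.4 CPM in KO, led by Fcgbp. Of 5 tested, 3 were called higher and 1 lower. The gene called lower was Fcgbp itself, with a mean of 166.5 CPM in WT and 58.5 CPM in KO, and it weighed most on the sum. Among those called higher, Muc5ac was at 0 in every WT library and had 141, 15 and 214 counts in KO. Immune cell markers summed to 239.2 to 321.4 CPM in WT and 266.0 to 342.1 CPM in KO, led by Itgam. Of 8 tested, 7 were called higher and 1 lower. The gene called lower was Itgam itself, with a mean of 265.6 CPM in WT and 174.7 CPM in KO, so the sum does not show the rises of the rest. Keratocyte and fibroblast markers summed to 13.4 to 17.1 CPM in WT and 16.4 to 26.0 CPM in KO, led by Vim. Of 6 tested, 5 were called higher and 1 lower. The gene called lower, Pdgfra, weighed most on the WT sum, with a mean of 13.1 CPM in WT and 1.21 CPM in KO. Melanocyte markers stood at 7.6 to 9.71 CPM in WT and 5.32 to 5.37 CPM in KO, with 2 of 3 tested called lower, and vessel markers at 0.0458 to 0.237 CPM in WT and 0.81 to 0.897 CPM in KO, with the 1 tested called higher. All these counts of calls stand beside 31.8% called higher and 30.2% lower over all genes tested. The part of such cells in the members' levels was not tested.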

How the data were processed

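Total RNA of separated corneal epithelium was depleted of ribosomal RNA and sequenced as single-end reads on a BGISEQ instrument according to the study's methods, whereas the labels name an Illumina TruSeq kit. Reads were cleaned with SOAPnuke and mapped with Bowtie2 2.2.5 by the authors, who deposited RSEM 1.2.12 estimated counts, FPKM and TPM per gene. The submitters' processing notes name mm9, whereas the deposited gene coordinates fitted GRCm38, which was used here. The authors' own fold changes, p-values and group means in the same table were not used. Effective lengths were computed as counts over FPKM and library total, and transcripts were taken from GENCODE M21.

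Groups came from the genotype labels. Rounded estimated counts entered the quasi-likelihood test of edgeR 4.0.16 under R 4.3.3 (TMM, filterByExpr, genotype alone in the model). Its p-values were adjusted by Benjamini-Hochberg over 13305 genes, with a threshold of 0.05. SE is the absolute log2 fold change over the square root of F. CPM was scaled by TMM factors of 1.012 to 1.054 in WT and 0.9524 to 0.9896 in KO. The 4 genes and all lists were chosen with earlier results of these data known. The genes named were the members, Rela, any of the corneodesmosome and peptidase list, the 3 highest and 3 lowest of the other lists and those near a member, the 2 nearest measured genes on each side of a locus, the 3 most alike in pattern with a mean count of at least 100, and of each cell type list the gene highest in KO and defining markers at 0. H2-Q7, Fosl2, Junb, Jund, Pdgfra and, in a plot, Zbtb32 were named after their values had been seen.

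Alternatives were DESeq2 1.42.0, RLE size factors, totals only, robust dispersion, TMM without the 20 highest genes, no count filter, a mean count of at least 50, a prior count of 2, limma 3.58.1 on log2(FPKM + 1) and log2(FPKM + 0.1), a replicate block and leaving out each library. Replicate numbers were not taken as pairs, since deviations of same-numbered libraries correlated at 0.0345, -0.00998 and 0.0606. On counts simulated for the 13305 genes with 200 changed, edgeR found 92% of the 2-fold changes and 100% of the 4-fold changes, with 8 false calls. The simulation gave every gene the same dispersion and changed no gene of low count. In the data 31.8% of genes were called higher and 30.2% lower, so these rates check the code and need not hold for the data. No 2 libraries agreed within sampling noise. PCR copies could not be told apart, so intervals and floors cover counting error only. Whether counting used strand is not given in the sources used here. Protein sequences, exon usage and reads were not analysed here.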

Additional observations from a re-analysis of the deposited data

How the results depend on the processing

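The alternatives were followed for 53 of the named genes with a test. Of these, 48 kept their direction and their side of the threshold in each of up to 16 alternatives. In some alternatives 2 lost their call and 2 changed sign, and 1 (Jund) gained a call in 1. Calls were lost by Ivl (adjusted p 0.0637 to 0.106 where lost) and by Calml3 (0.0716 to 0.09), so the upper epidermis genes called lower numbered 0 to 2 with a library left out, from 0 without WT replicate 3 or KO replicate 2. With the replicate number as a block, which pairs libraries by number only, 1 upper epidermis gene was called lower in place of 2, and the block changed no other count of calls by over 1.5 times. The sign changed for Gapdhs (-0.26 to 0.16 with a library left out, positive at 0.13 without WT replicate 2 and 0.16 without KO replicate 3) and Cd22 (-0.51 to 0.01, positive without WT replicate 1), neither of them called. With limma on either FPKM scale, 2 corneodesmosome and peptidase genes were called lower in place of 1. Within 500 kb of a member, 26 genes were called higher and 17 lower, in place of 8 and 9. On chromosome 7 these were 14 higher and 3 lower of 33 tested, in place of 5 and 3 of 19. On chromosome 17 they were 12 higher and 14 lower of 50 tested, in place of 3 and 6 of 13. Over all genes tested, 31.8% were called higher and 30.2% lower. The balance of higher and lower calls near the members thus depended on the window. The log2 fold change of Krtdap was 12.84 with a prior count of 2, 11.26 with limma on log2(FPKM + 1), and 13.34 to 15.41 with a library left out, the highest without WT replicate 2. With CPM in place of TPM, the KO ratio was 0.715 for Krtdap to Dmkn, 1.9 for Dmkn to Sbsn and 0.912 for Sbsn to Cdsn, so the order per length is not that per read. Of the 3 genes most like Sbsn, Dmkn or Cdsn, 0 were named again with a pseudocount of 0.1 or with Pearson correlation, and of those most like Krtdap 0 with Pearson correlation. Depth limits the WT side of Krtdap, where single reads set the fold.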
